A study of Mus musculus with 6 samples.

Results

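Insulin-like growth factors, their receptors and their binding proteins were followed in mouse cells labelled as primary lung fibroblasts, in 3 libraries called NC and 3 libraries of calumenin knockdown (KD). The genes were taken by name: 2 ligands (Igf1, Igf2), 2 receptors (Igf1r, Igf2r) and 6 binding proteins (Igfbp2 to Igfbp7), or 10 genes of the 54532 in the deposited table. The titles call the groups NC and calumenin KD, and the descriptions call the same libraries WT and KO. The series text speaks of knocking out or knocking down calumenin in fibroblasts, and its stated question was how this bears on senescence and fibrosis signalling. Strain, age, passage, the knockdown agent and the number of cultures or animals are not given in the labels, and NC is not spelled out. With no mention of separate cultures or animals, the p-values cover only the variation among these libraries, which could be technical.

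IGF1 and IGF2 are secreted growth and survival factors, and IGF1R is the cell-surface tyrosine kinase through which both signal to PI3K and AKT. IGF2R carries no kinase: it takes IGF2 to the lysosome and also sorts newly made lysosomal enzymes that bear mannose 6-phosphate. The binding proteins hold IGFs outside the cell, where they can block or prolong their action, and proteases release the ligand again. In the lung, fibroblasts are known as a source of IGF1, and several binding proteins, among them IGFBP3, IGFBP5 and IGFBP7, have been linked to the secretions of senescent cells.

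The 250 bases before the RefSeq start site (GRCm38.p6) of 3 genes are shown because these genes span the range of levels: Igf1, the single gene of the family that passed the test, Igfbp6, the most abundant, and Igfbp3, which had 1 read in all. Capitals mark CG dinucleotides, and each sequence reads 5′ to 3′ along the strand of its gene.
Igf1 (chr10:87860861-87861110, plus strand): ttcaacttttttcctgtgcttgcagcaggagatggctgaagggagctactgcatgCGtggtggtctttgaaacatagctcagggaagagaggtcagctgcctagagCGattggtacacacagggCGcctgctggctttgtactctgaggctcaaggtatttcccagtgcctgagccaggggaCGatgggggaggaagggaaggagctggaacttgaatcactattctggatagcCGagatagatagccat
Igfbp6 (chr15:102143936-102144185, plus strand): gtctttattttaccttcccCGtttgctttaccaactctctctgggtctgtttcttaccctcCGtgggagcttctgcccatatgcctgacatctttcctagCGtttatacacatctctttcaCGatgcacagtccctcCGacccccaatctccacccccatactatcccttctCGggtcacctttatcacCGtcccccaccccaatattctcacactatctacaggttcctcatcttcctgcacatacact
Igfbp3 (chr11:7213924-7214173, minus strand): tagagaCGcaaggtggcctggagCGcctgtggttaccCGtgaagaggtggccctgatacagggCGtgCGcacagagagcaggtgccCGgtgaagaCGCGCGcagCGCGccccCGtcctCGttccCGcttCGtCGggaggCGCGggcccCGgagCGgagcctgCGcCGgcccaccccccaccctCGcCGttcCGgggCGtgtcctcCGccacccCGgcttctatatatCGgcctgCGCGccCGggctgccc
The Igf1 window held 5 CG dinucleotides, the Igfbp6 window 7 and the Igfbp3 window 32, against a median of 6 over 32851 RefSeq start sites. The start site of Igf1 in RefSeq lies inside the gene as deposited, which begins further upstream, and gene-level values do not say which start was used. All 10 genes matched the promoter table, with 14 windows in total. The letters TATAAA, searched on both strands, were in the windows of Igfbp4 and Igfbp6, and 12.4% of all windows held them. The letters GTAAACA, a core of FOXO-binding elements, were in 0 of the 14 windows and in 3.17% of all windows. The most CG-rich of the 3 printed windows thus belonged to a gene with almost no reads. Over the 14 windows the most CG-rich was that of Igf1r, with 42 CG dinucleotides, a gene at a mean of 7.72 FPKM in NC. A match or its absence describes these letters alone.

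Reads counted on the listed genes came to 15907164 to 18312888 per library, worked out from the deposited FPKM (fragments per kilobase of gene per unit of library size) and gene length. Sequencing was paired-end, so what is called a read here may be a read pair, and reads outside the listed genes are not included. The targeted gene Calu was at 220 to 227 FPKM in NC and 12.6 to 14.6 FPKM in KD. KD1 stood apart from the other KD libraries: comparing read counts pairwise, chi-square over its degrees of freedom was 15.7 (KD1 and KD2), 25.9 (KD1 and KD3), 4.15 (KD2 and KD3) and 2.26 to 3.03 for pairs of NC libraries. Across genes, its departure from the average library had a rank correlation of -0.41 with GC content, where KD2 had 0.34 and KD3 had 0.49. Of 10 fibroblast markers 7 were at 1 FPKM or more, led by Vim and Col1a2, but Thy1 and Dcn were close to 0 and Lum had 0 reads. The 7 were not steady between groups: the test described below called 3 higher and 2 lower in KD, where it called 24.5% of all genes. Mean levels in NC and KD were 149 and 284 FPKM for Col1a1 and 173 and 295 FPKM for Fn1. Pdgfra was also higher, while Col3a1 (24.6 and 10.9 FPKM) and Pdgfrb were lower. Of 8 transcription factors of lung fibroblasts 7 were under 1 FPKM, with 0 reads for Tcf21 and Twist1 in all libraries. Markers of epithelium (summed level 0.0972 to 0.917 FPKM over all libraries) and endothelium (0.147 to 0.243 FPKM) were near 0. Markers of leukocytes summed to 4.91 to 5.77 FPKM in NC and 3.39 to 5.02 FPKM in KD, almost all of it Cd68 and Lyz2, with Adgre1 at 0 reads. The mesothelial sum, 13.7 to 14.8 FPKM in NC and 10.4 to 14.3 FPKM in KD, was almost all Msln, with Upk1b at 0 reads. The smooth muscle and pericyte sum, 55.0 to 58.9 FPKM in NC and 45.9 to 60.8 FPKM in KD, was mostly Cspg4 and Des, with Rgs5 at 0 reads.

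Igf1 was higher in every KD library than in every NC library, at 2.86 times the NC level, and no other gene of the family passed the test with all 6 libraries. Of the 10 genes, 6 had a mean of at least 1 FPKM and were tested. Limma on log2(FPKM + 1) put 1 of these 6 higher and 0 lower at an adjusted p under 0.05. The same test called 24.5% of 12299 genes, 10.9% as higher and 13.6% as lower. The median difference was 0.14 over the 6 tested genes and 0.01 over all tested genes. The groups did not overlap for 3 of the 6 (Igf1, Igf1r and Igf2r), as for 44.2% of all tested genes. The count of 1 among 6 tested genes was not read as differing from the 10.9% of all genes called higher.

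**Figure D1:**
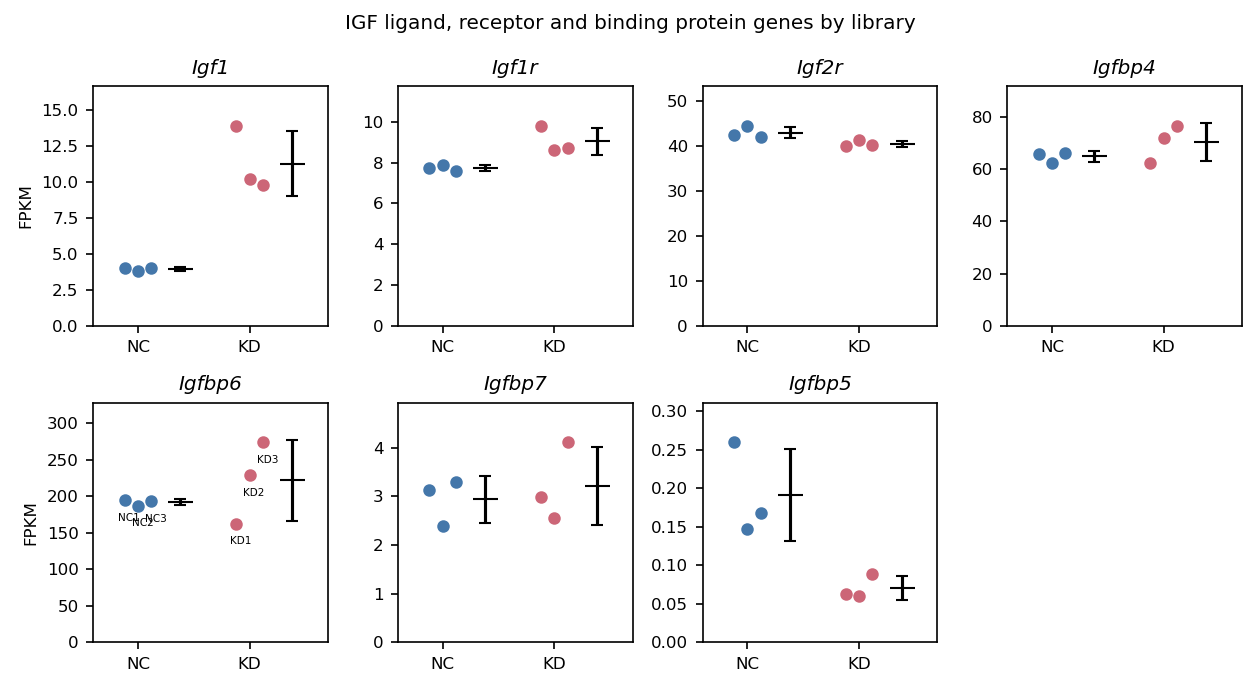
FPKM in each library (points) for the 6 tested genes and Igfbp5, with the group mean and SD (n = 3) at the right of each group; every axis starts at 0. Igf1 lies between 3.80 and 4.04 FPKM in NC and between 9.78 and 13.9 FPKM in KD, and Igfbp6 shows KD1 below and KD2 and KD3 above the NC libraries.

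Of the ligands, Igf1 had reads in every library and Igf2 in none. Igf1 (ENSMUSG00000020053) lies on chromosome 10 at 87858265 to 87937042 of mm10, plus strand. Its FPKM values were 4.04, 3.80 and 4.001 in NC1, NC2 and NC3, against 13.9, 10.2 and 9.78 in KD1, KD2 and KD3. All KD values lay above all NC values, with KD1 the highest. Group means were 3.95 ± 0.13 and 11.3 ± 2.26 FPKM (SD, n = 3), a 2.86-fold ratio. Igf1 rose by 1.30 on the log2(FPKM + 1) scale (SE 0.13, 95% interval 0.995 to 1.60, limma adjusted p = 0.000988). The call held under every alternative run, with differences from 0.85 with a pseudocount of 5 to 1.54 with voom on the recovered reads. Without KD1 the difference was 1.15 (limma adjusted p = 0.000104). In bulk RNA, more cells that express a gene and more RNA per cell cannot be told apart. The antisense gene Igf1os overlaps Igf1 over 5117 bases, but it had 29 reads over all 6 libraries, and the strand setting of the counting is not stated.

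Igf2, on the minus strand of chromosome 7 at 142650766 to 142666816, had 0 reads in all 6 libraries. The predicted gene Gm49394, on the same strand, covers 16048 bases of Igf2, nearly its whole span, and was also listed at 0 reads. How the counting treated reads shared by overlapping genes is not stated in the sources used here. A value of 0 therefore sets no upper limit on Igf2 RNA, and whether Igf2 was expressed cannot be told from these values. Ins2, which encodes insulin and lies nearby, had 0 reads, and H19, the imprinted noncoding RNA of the same locus, had 2 reads, both in NC1.

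The genes whose profile was most like that of Igf1 over the 6 libraries were Nmt2, Gm38119 and Cp. They were picked by Pearson's r on log2(FPKM + 1) among the 234 other protein-coding tested genes with a difference of at least 1, and r was 0.999, 0.999 and 0.998. With libraries in 2 groups such values mostly reflect the group difference itself. Nmt2, an N-myristoyltransferase gene, went from a mean of 168 to 374 FPKM, with KD values of 434, 352 and 336 FPKM in KD1 to KD3. Cp, which encodes the copper-binding ferroxidase ceruloplasmin, went from 2.51 to 8.57 FPKM, and Gm38119 from 0.0553 to 5.01 FPKM. In each of the 3, as in Igf1, KD1 was the highest library, which the choice by r over these same libraries favours.

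Neither receptor passed the test with all 6 libraries. Igf1r, on chromosome 7 at 67952827 to 68233668 (plus strand), had 7.72, 7.86 and 7.59 FPKM in NC1, NC2 and NC3 and 9.79, 8.62 and 8.70 FPKM in KD1, KD2 and KD3. Every KD value lay above every NC value. The means were 7.72 ± 0.14 and 9.04 ± 0.65 FPKM (SD, n = 3), a ratio of 1.17. The log2 difference was 0.20 (SE 0.07, 95% interval 0.04 to 0.36), and it did not pass (limma adjusted p = 0.0697). It passed with voom on the recovered reads (0.26, adjusted p = 0.0189), where 14.9% of genes were called higher. It also passed after a trend with GC and length was taken out (0.24, limma adjusted p = 0.0126; here 19.4% of genes were higher) and without KD1 (0.15, limma adjusted p = 0.0429, 20.9% of genes higher).

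Igf2r, on chromosome 17 at 12682406 to 12769664 (minus strand), had 42.5, 44.5 and 42.1 FPKM in NC and 40.1, 41.2 and 40.2 FPKM in KD. All KD values were below all NC values, but the gap was narrow. The log2 difference was -0.08 (SE 0.05, 95% interval -0.20 to 0.04, limma adjusted p = 0.27). It passed with the chromosome medians removed (-0.25, limma adjusted p = 0.0202), a setting that called 11% of genes lower. Airn, the antisense noncoding RNA at Igf2r, shares 28354 bases of its span and had 582 reads in all, and without a stated strand setting its reads and those of Igf2r could be mixed. By mean FPKM, which is per length, Igf2r stood at 5.57 ± 0.08 times Igf1r in NC and 4.5 ± 0.36 times in KD (SD, n = 3). The ratio was 5.50, 5.66 and 5.55 in NC1 to NC3 and 4.10, 4.78 and 4.63 in KD1 to KD3, and it was given no test.

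**Figure D2:**
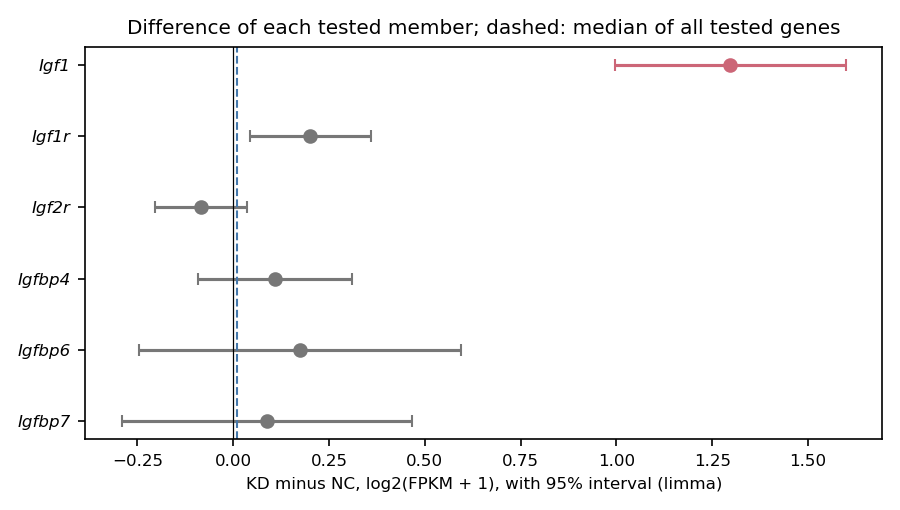
Difference between KD and NC on the log2(FPKM + 1) scale for the 6 tested genes, with 95% limma intervals; the dashed line is the median of all tested genes (0.01) and red marks an adjusted p under 0.05. The interval of Igf1 runs from 0.995 to 1.60, and those of Igf2r, Igfbp4, Igfbp6 and Igfbp7 include 0.

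Among the binding proteins, Igfbp6 and Igfbp4 made up nearly all of the transcripts, and whether they passed the test depended on which KD libraries were counted. Igfbp6, whose product prefers IGF2 over IGF1, lies on chromosome 15 at 102144362 to 102149511 (plus strand). It had 195, 187 and 194 FPKM in NC1, NC2 and NC3, and 163, 229 and 274 FPKM in KD1, KD2 and KD3. KD1 was below all NC libraries while KD2 and KD3 were above them, so the groups overlapped. The means were 192 ± 4.10 and 222 ± 55.8 FPKM (SD, n = 3), and the log2 difference of 0.17 did not pass (SE 0.18, 95% interval -0.24 to 0.59, limma adjusted p = 0.505). Without KD1 it was 0.38 (limma adjusted p = 0.0123), where 42.4% of all genes were called. Without KD3 it was 0.00718 (limma adjusted p = 0.977). The longest Igfbp6 transcript is 60.7% GC, and after removal of a trend with GC and length the difference was 0.03 (limma adjusted p = 0.804).

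Igfbp4, an inhibitor of IGF action whose cleavage frees the ligand, lies on chromosome 11 at 99041244 to 99054392 (plus strand). It had 66.0, 62.4 and 66.3 FPKM in NC and 62.3, 71.9 and 76.6 FPKM in KD1, KD2 and KD3. KD1 was again the lowest KD library and the groups overlapped. The log2 difference was 0.11 (SE 0.08, 95% interval -0.09 to 0.31, limma adjusted p = 0.381). Without KD1 it was 0.19 (limma adjusted p = 0.0224), and with the GC and length trend removed it was 0.06 (adjusted p = 0.278), the longest transcript being 55.1% GC.

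Igfbp7, which binds IGFs weakly and is a secreted factor tied to senescence, had 3.14, 2.39 and 3.29 FPKM in NC and 2.995, 2.55 and 4.11 FPKM in KD. These rest on 170 reads in NC and 202 in KD, and the groups overlapped. The log2 difference was 0.09 (SE 0.16, 95% interval -0.29 to 0.47, limma adjusted p = 0.722). The gene lies on chromosome 5 at 77349240 to 77408041 (minus strand) and shares 85 bases with Polr2b on the other strand, an RNA polymerase II subunit gene at a mean of 41.5 FPKM in NC and 39.9 FPKM in KD. A fall or rise within the interval could not be seen at this depth.

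The other 3 binding proteins were close to or at the limit of detection and were not tested. Igfbp5, a matrix-binding member linked to fibrosis and senescence, had 25, 14 and 16 reads in NC1, NC2 and NC3, and 7, 6 and 9 reads in KD1, KD2 and KD3. All KD counts were below all NC counts. In total 55 reads in NC (exact 95% Poisson interval 41.4 to 71.6) stood against 22 in KD (13.8 to 33.3), counting error only, and the mean level was 0.191 FPKM against 0.0706 FPKM. With no filter, voom on the reads gave a log2 difference of -1.32 (SE 0.44, adjusted p = 0.0645) and limma on log2(FPKM + 1) gave -0.15 (adjusted p = 0.104), so neither passed. Voom with no filter called 13% of 28280 genes.

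Igfbp2 had 0 reads in all libraries, where 3 reads would be 0.0878 to 0.102 FPKM. Igfbp3, the main carrier of IGFs in serum and a growth inhibitor, had 1 read, in KD2. Igfbp1, its neighbour and a hormone-controlled liver gene, had 0 reads. Igfbp2 and Igfbp5 lie tail to tail on chromosome 1 with 5457 bases between them, and Igfbp1 and Igfbp3 do so on chromosome 11 with 3539 bases between them. The highest value of any of these 4 genes was 0.259 FPKM, for Igfbp5 in NC1.

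Summed over the 6 binding proteins, the level was 264, 252 and 263 FPKM in NC1, NC2 and NC3 and 228, 303 and 354 FPKM in KD1, KD2 and KD3, so the groups overlapped. Igfbp6 took 73.5% to 74.2% of this sum in NC and 71.3% to 77.2% in KD, and Igfbp4 24.8% to 25.2% and 21.6% to 27.3%. Igf1 amounted to 1.53%, 1.51% and 1.52% of the binding protein sum in NC. It amounted to 6.09%, 3.35% and 2.76% in KD1, KD2 and KD3. On this FPKM scale Igf1 stood higher against this sum, which was mostly Igfbp6, in every KD library, most of all in KD1, where Igf1 was highest and Igfbp6 lowest. The longest transcript is 38.0% GC for Igf1 and 60.7% GC for Igfbp6. The departure of a library from the average correlated with GC at -0.41 in KD1, 0.34 in KD2 and 0.49 in KD3. Whether this shaped the ratio was not tested, and the ratio itself was given no test.

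By mean FPKM in NC the order was Igfbp6, Igfbp4, Igf2r, Igf1r, Igf1, Igfbp7 and Igfbp5, and no 2 neighbours in this order overlapped in their NC libraries. In KD, Igf1 (11.3 FPKM) stood above Igf1r (9.04 FPKM), but their libraries overlapped. The rest of the order was the same in KD, again with no overlap between neighbours. Igf2, Igfbp2 and Igfbp3 closed both orders at 0 or 1 read.

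**Figure D3:**
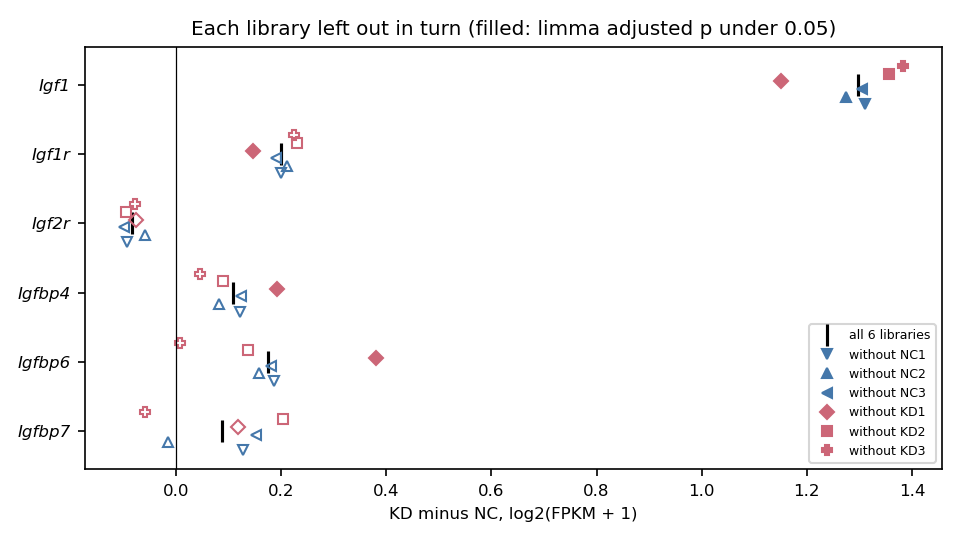
Difference between KD and NC for each tested gene with all 6 libraries (black bar) and with each library left out in turn; filled symbols have a limma adjusted p under 0.05. Igf1 stays between 1.15 and 1.38, while Igfbp4 and Igfbp6 pass without KD1 and not without any other single library.

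Genes that act around and below the IGF receptors moved in both directions, in 6 lists of 93 genes, of which 65 were tested. Limma put 9 of these higher and 6 lower in KD, or 23.1% of those tested, close to the 24.5% over all genes. Their median log2 difference was 0.01, as over all tested genes. Without KD1, 19 were higher and 12 lower, or 47.7% of those tested, where 42.4% of all genes were called. Without NC1, 5 were higher and 3 lower, or 12.3%, beside 12.7% of all genes. Without NC2, NC3 or KD2, 4 were higher and 3 lower in each fit, or 10.8%, beside 12.3%, 13.3% and 12.8% of all genes. The share among these genes thus moved along with the share over the whole table. No count of a single list below was read as a result about that list.

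Of the genes for IGFBP-cleaving enzymes, their inhibitors and IGF carriers, 2 of 10 were tested and 1 rose, where 10.9% of all genes were higher. Htra1 encodes a secreted serine protease that can cleave IGF-binding proteins. It had 90.8, 85.9 and 87.6 FPKM in NC and 129, 126 and 123 FPKM in KD, a log2 difference of 0.51 (SE 0.05, limma adjusted p = 0.00107). The groups were far apart against their spread. Pappa, which encodes the main protease for IGFBP4, had 34 reads over the NC libraries and 23 over the KD libraries. Stc1 and Stc2, which encode inhibitors of that protease, had 0 and 1 read. Igfals, the serum carrier subunit, had 5 reads in all.

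Of genes at the Igf2 and Igf2r loci and for IGF2 mRNA-binding proteins, 4 of 8 were tested and 1 rose, where 10.9% of all genes were higher. The gene that rose was Airn, from 1.18 ± 0.11 to 2.02 ± 0.33 FPKM (SD, n = 3), a log2 difference of 0.47 (SE 0.12, limma adjusted p = 0.028). The call ended without NC1, NC2, NC3, KD2 or KD3, with adjusted p between 0.0524 and 0.0947, and with no filter, with a replicate block (0.0684) or with chromosome medians removed. The mRNA-binding proteins Igf2bp1 (3.24 and 4.16 FPKM in NC and KD), Igf2bp2 (13.7 and 13.5 FPKM) and Igf2bp3 (11.7 and 10.9 FPKM), which stabilise Igf2 and other mRNAs, did not pass.

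Of 20 genes for insulin receptors, adaptors and docking proteins, 14 were tested, 4 rose and 1 fell, or 35.7% called, beside 24.5% of all genes. Insr encodes the insulin receptor, which can pair with IGF1R. It had 4.48, 4.56 and 4.503 FPKM in NC and 6.65, 5.81 and 5.66 FPKM in KD, a log2 difference of 0.35 (SE 0.07, limma adjusted p = 0.0166). The docking protein gene Gab1 went from 2.93 ± 0.35 to 4.71 ± 0.76 FPKM (SD, n = 3; limma adjusted p = 0.0198), and the adaptor gene Sh2b1 from 17.0 ± 0.68 to 23.5 ± 3.90 FPKM (adjusted p = 0.0412). Nedd4, a ubiquitin ligase gene that acts on IGF1R and on adaptors, went from 140 ± 4.84 to 192 ± 17.8 FPKM (limma adjusted p = 0.00798). The 1 that fell was Irs1, the docking protein that links IGF1R to PI3K, named after its value was seen. Irs1 had 26.2, 26.1 and 25.9 FPKM in NC and 21.4, 22.0 and 21.9 FPKM in KD, a log2 difference of -0.25 (SE 0.05, limma adjusted p = 0.0124). The calls for Insr and Irs1 ended without NC1, NC2, NC3 or KD2 (adjusted p between 0.052 and 0.0674) and with chromosome medians removed. Gab1 lost its call without NC2, NC3 or KD2 and Sh2b1 without any single library but KD1 (adjusted p between 0.0667 and 0.134).

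In the PI3K, AKT and mTORC1 arm 28 of 31 genes were tested, 2 rose and 2 fell, or 14.3% called, beside 24.5% of all genes. The regulatory PI3K subunit gene Pik3r3 had 4.25, 3.88 and 3.98 FPKM in NC and 1.80, 1.59 and 1.41 FPKM in KD, and fell by 0.96 on the log2(FPKM + 1) scale (SE 0.09, limma adjusted p = 0.000813). This was the largest difference of any tested gene in the 6 lists. Its relative Pik3r2 went from 24.3 ± 0.52 to 35.1 ± 5.69 FPKM (SD, n = 3; limma adjusted p = 0.0232), and Pik3r1 had 14.2 and 14.5 FPKM. Phlpp1, which encodes an AKT phosphatase, went from 5.15 ± 0.30 to 3.83 ± 0.34 FPKM (limma adjusted p = 0.0227). Eif4ebp2, a translation repressor that mTORC1 switches off, went from 46.3 ± 0.37 to 57.8 ± 0.98 FPKM (limma adjusted p = 0.00505). The calls for Pik3r2 and Phlpp1 ended without NC1, NC2, NC3 or KD2, and that for Phlpp1 also without KD3 (adjusted p between 0.0515 and 0.0912). Akt1 (73.1 and 69.5 FPKM) did not pass.

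AKT signalling keeps FOXO factors out of the nucleus and so holds their targets down. Among FOXO factors and reported FOXO targets, 13 of 20 were tested, 1 rose and 2 fell, or 23.1% called, beside 24.5% of all genes. Txnip, which encodes a thioredoxin-binding protein, went from 21.8 ± 0.70 to 30.9 ± 1.44 FPKM (SD, n = 3; limma adjusted p = 0.00221). Pdk4, a brake on pyruvate oxidation, went from 9.31 ± 1.12 to 5.67 ± 0.44 FPKM (limma adjusted p = 0.0061), and the cell-death gene Bcl2l11 from 8.95 ± 0.34 to 5.79 ± 0.61 FPKM (limma adjusted p = 0.00439). Of 4 genes for mannose 6-phosphate tagging and receptors 1 fell, where 13.6% of all genes were lower. M6pr, the smaller receptor that shares the sorting role of Igf2r, went from 42.0 ± 0.88 to 35.3 ± 2.98 FPKM (limma adjusted p = 0.0483). The M6pr call was at the edge: it ended under 14 of the 21 other settings, and with chromosome medians removed the log2 difference was -0.0232. Removal of chromosome medians also ended the calls of Gab1, Pik3r2 and Phlpp1, the unfiltered fit those of Gab1, Sh2b1, Pik3r2 and Phlpp1, array weights that of Gab1, and the replicate block that of Sh2b1 (limma adjusted p = 0.0561) and M6pr (0.0597).

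**Figure D4:**
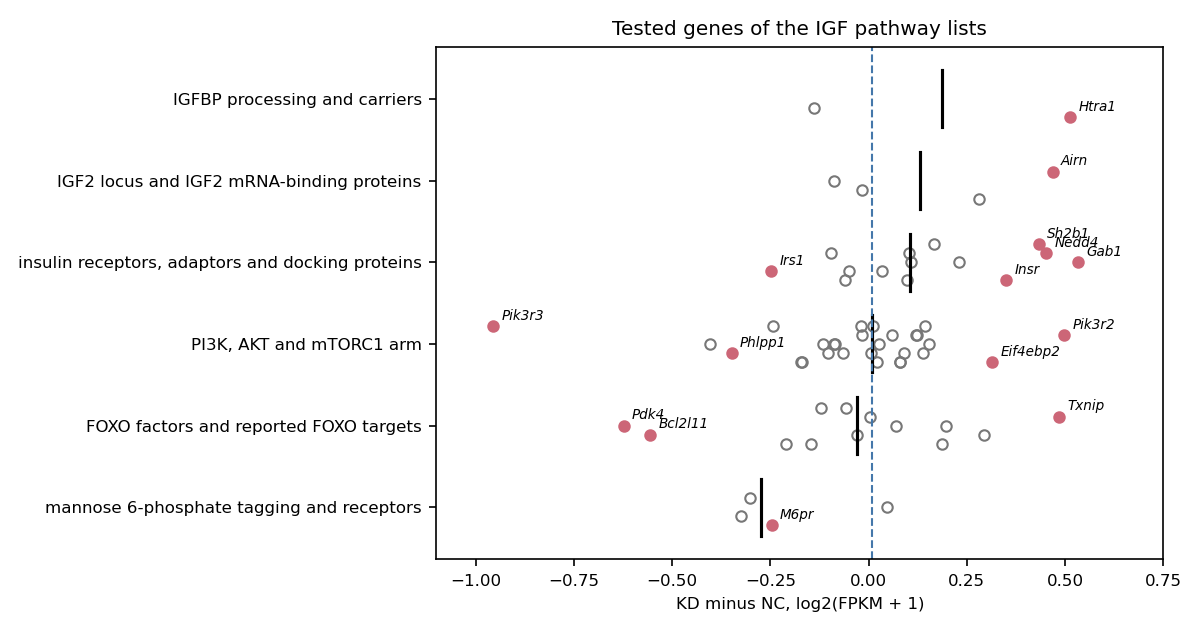
Difference between KD and NC for the tested genes of 6 lists around the IGF receptors (filled: limma adjusted p under 0.05; black bar: median of the list; dashed line: median of all tested genes, 0.01). Pik3r3 lies lowest at -0.96, and called genes lie on both sides in the receptor and adaptor, PI3K and FOXO lists.

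Of the 28 pathway genes under the 1 FPKM filter, 19 had at least 1 read. Voom with no filter, chosen after the data were seen, put 0 of these higher and 6 lower in KD. Over all genes it called 13% in either direction and 6.68% lower. The filter uses the mean over all 6 libraries, so a fall in KD can bring a gene under it and a rise can keep a gene out. The split between higher and lower was therefore not read as a result about these genes. Rictor, a defining subunit of mTORC2, had 136, 167 and 184 reads in NC and 12, 14 and 2 reads in KD (log2 difference -4.46, voom adjusted p = 2.4e-05). Foxo1 had 195, 153 and 131 reads in NC and 61, 53 and 43 in KD (log2 difference -1.67, voom adjusted p = 0.000129). Pik3cd, Pappa2 and Fbxo32 were also among the 6, with 130, 36 and 36 reads in NC and 30, 4 and 6 in KD. These genes were lowly expressed also in NC, with Foxo3 (7.35 and 8.52 FPKM in NC and KD) the leading FOXO gene by level.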

How the data were processed

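RNA from 3 NC and 3 KD samples was sequenced as paired-end reads on an Illumina NovaSeq instrument and aligned with HISAT2 2.0.5, per the labels' protocols, to mm10, per the submitters' processing notes. The authors deposited FPKM values for 54532 genes, with gene length in bases, per the file headers. For the counting tool, its strand setting and the annotation, nothing is stated in the sources used here. Multiplied by gene length, 100% of values were whole multiples of the library's smallest step within 0.01, so reads (or read pairs) per gene were recovered.

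Groups came from the titles. Genes averaging 1 FPKM or more were tested by limma (version 3.58.1, R 4.3.3) on log2(FPKM + 1), using a trended empirical Bayes fit and Benjamini-Hochberg adjustment over all tested genes at 0.05. Fold changes on this scale understate low genes. Members, gene lists and tests were chosen with earlier results of these data known. Named genes were Calu, the 10 family genes and their pair neighbours, up to 4 called genes per pathway list by absolute difference (or the 2 of highest mean), and up to 3 genes most like Igf1. Leading genes of the marker lists and those at 0 reads were also named, in part. Further genes were named outside this rule, among them Igf2bp1 to Igf2bp3, Pappa, Stc1, Stc2, Igfals, Pik3r1, Akt1, Foxo3, Foxo4 and some fibroblast markers. Irs1 and the genes named from voom with no filter, such as Rictor and Foxo1, were named after their values were seen. Alternatives were pseudocounts, filters, scalings, moderation, array weights, a replicate block, voom, protein-coding genes only, removal of chromosome medians or of the trend with GC and length (natural splines, 5 degrees of freedom each; GC of the longest GENCODE M21 transcript), and each library left out. EdgeR and DESeq2 were not run, and voom was the test applied to the recovered reads. Values of some list genes are not reported here. The code was tested on simulated data. Python 3.11.15, pandas 2.3.3 and matplotlib 3.10.9 made the tables and plots.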

Additional observations from a re-analysis of the deposited data

How the results depend on the processing

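Igf1 kept its direction and its call under all alternatives run. Over 22 single genes (Calu, the 6 tested family genes and 15 pathway genes), 389 of 456 differences recomputed under the alternative settings other than voom with no filter kept their direction and side of the threshold, 58 lost the call, 6 gained it and 3 changed sign. Voom with no filter, added after the data were seen, gave 12 more for the 6 family genes, 6 of them also without KD1, of which 8 kept their side and 4 gained a call. The 3 sign changes were all of Igfbp7, at -0.0384 with the GC and length trend removed, and at -0.016 without NC2 and -0.0587 without KD3, in a range of -0.0587 to 0.204 with a library left out. Family genes higher in KD numbered 2 with voom and 2 with the GC and length trend removed (Igf1 and Igf1r), and 1 to 4 with a library left out, the 4 (with Igfbp4 and Igfbp6) without KD1. Family genes lower numbered 1, Igf2r, with chromosome medians removed and 0 with any library left out. Pathway genes higher numbered 5 of 84 with no filter, where 992 genes were higher over the whole table. With the GC and length trend removed they numbered 15 of 65, where 2383 of 12282 genes (19.4%) were higher. With a library left out they numbered 4 to 19. Pathway genes lower numbered 11 of 65 with array weights, where 1722 of 12299 genes were lower over the whole table. With the GC and length trend removed they numbered 10 of 65, where 2211 of 12282 genes were lower. With a library left out they numbered 3 to 12. No such count was read as a shift of the pathway genes. Over all genes 590 to 2572 were higher and 923 to 2648 lower with a library left out. The cause of these shifts was not tested. With the replicate number as a block 1050 genes were higher and 1383 lower, with 1 family gene higher. Deviations of same-numbered libraries correlated at 0.079, -0.043 and 0.154, and not every library correlated best with its own number, so the numbers were not taken as pairs. The planned edgeR and DESeq2 alternatives were not run. For genes under 1 FPKM, the 15907164 to 18312888 reads counted on genes per library limit what can be seen.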
